A study of Mus musculus with 9 samples.

Results

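The genes described here are 8 genes that mark mural cells, the cells that wrap the vessels of the brain: Pdgfrb, Vtn, Abcc9, Notch3, Higd1b, Acta2, Tagln and Myh11. They were taken by name from the deposited table of raw counts, in which 49315 genes are listed by Ensembl identifier, and all 8 were found. All 8 also passed the filter on low counts that left 18492 genes for testing. The libraries came from whole brains of male C57BL/6J wild-type mice. The young group held 5 mice, aged 3 months by the sample labels and 3 or 4 months by the study's methods, and the old group held 4 mice aged 33 months. All mice had free access to food, no treatment is named for either group, and each mouse gave 1 polyA-selected library. Old and young mice were compared to ask how ageing alters transcript levels in the brain.

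Mural cells comprise pericytes, which sit on capillaries, and vascular smooth muscle cells, which ring arterioles and arteries. Pericytes are recruited by PDGF-B from endothelial cells, which acts on the receptor PDGFR-beta, and they help to maintain the blood-brain barrier. Smooth muscle cells carry a contractile apparatus of actin, smooth muscle myosin and their regulators, and both cell types set vessel tone with the help of potassium channels that respond to the energy state of the cell. In whole tissue, fewer cells of a type and less RNA per cell cannot be told apart, and the values below are levels in the RNA of the whole brain.

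The libraries held between 14229259 and 21150439 counts on genes. The neuronal transcripts Snap25 (1857 to 2139 CPM, counts scaled to the total of the library) and Rbfox3 (307 to 369 CPM) and the myelin transcript Mbp (2747 to 4021 CPM) were high in every library. Young replicate 4 stood apart from the other young libraries: the astrocyte gene Gfap reached 514 CPM there, while the remaining 4 young mice had 191 to 221 CPM and the old mice 434 to 638 CPM. The complement gene C4b reached 103 CPM, while the remaining young mice had 26.5 to 28.9 CPM and the old mice 257 to 325 CPM. Values without this library are given beside the results below that it alters. Across all genes, edgeR's quasi-likelihood test called 11.0% at an adjusted p under 0.05, with 6.20% higher and 4.83% lower in old mice. The lower calls numbered 893, and 585 without young replicate 5 or 586 without old replicate 5.

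Of the 8 mural genes, 1 was higher in old brains and 0 were lower, beside the backgrounds of 6.20% and 4.83%. The gene that rose was Abcc9, at 1.32-fold (95% confidence interval 1.17 to 1.49). The other 7 did not pass the test, with log2 fold changes between -0.16 for Pdgfrb and 0.16 for Tagln. The median log2 fold change of the 8 was 0.058, and that of all tested genes was -9.2e-05. With 1 mouse left out, the median of the 8 ran from -0.0051 without young replicate 4 to 0.12 without old replicate 4, and on log2(TPM + 1), a level corrected for gene length, it was -0.10 where that of all genes was -0.14. Its sign thus rested on young replicate 4 and on the scale. Before adjustment, 2 of the 8 had a p under 0.05, Abcc9 and Notch3.

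**Figure D1:**
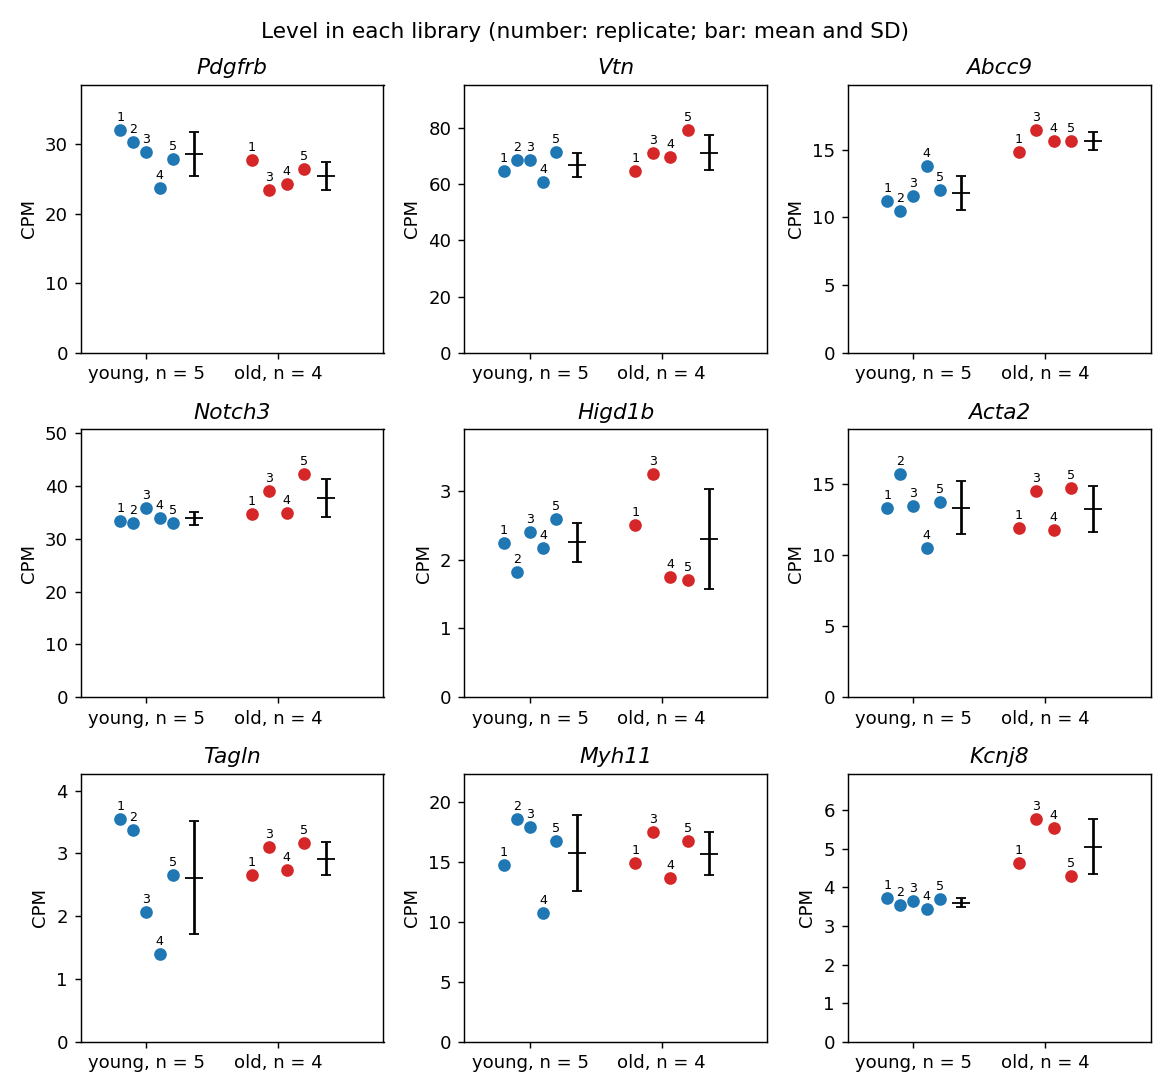
Level of the 8 mural genes and Kcnj8 in each library, in CPM on linear axes that start at 0. Each point is 1 mouse with its replicate number (blue, 5 young; red, 4 old), and the bars show the mean and SD of each group. All 4 old libraries lie above all 5 young ones for Abcc9 and Kcnj8, whereas the groups overlap for the other 7 genes.

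Abcc9 (ENSMUSG00000030249) encodes SUR2, the regulatory subunit of the ATP-sensitive potassium channel of mural cells. It lies on chromosome 6 of GRCm38 from 142587862 to 142702315, on the minus strand. The partner that forms the pore of this channel, Kir6.1, is encoded by Kcnj8 (ENSMUSG00000030247), from 142564837 to 142571614 on the same strand. The 2 genes are separated by 16247 bases, with 0 annotated genes between them. Their promoters are shown because both subunit genes rose with age, as described next, and the promoter of Acta2 is shown as that of a contractile gene, which did not. Each sequence is taken from RefSeq on GRCm38.p6, runs 5′ to 3′ along the gene, and covers 250 bases before the transcription start and 50 bases after it. Of the 8 mural genes, 4 had an entry in the promoter table used (Vtn, Abcc9, Acta2 and Notch3). Capitals mark the word TGGGAA, the core bound by RBPJ, the DNA-binding partner of Notch, and, in Acta2, words that match the CArG box of serum response factor with 1 other base allowed.
Abcc9, chr6:142702225-142702524, minus strand: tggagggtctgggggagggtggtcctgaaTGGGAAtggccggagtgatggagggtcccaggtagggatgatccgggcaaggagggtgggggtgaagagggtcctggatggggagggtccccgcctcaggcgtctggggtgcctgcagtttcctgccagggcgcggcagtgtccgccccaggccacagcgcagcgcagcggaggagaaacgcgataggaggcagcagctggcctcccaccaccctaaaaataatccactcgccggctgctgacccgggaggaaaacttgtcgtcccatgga
Kcnj8, chr6:142571565-142571864, minus strand: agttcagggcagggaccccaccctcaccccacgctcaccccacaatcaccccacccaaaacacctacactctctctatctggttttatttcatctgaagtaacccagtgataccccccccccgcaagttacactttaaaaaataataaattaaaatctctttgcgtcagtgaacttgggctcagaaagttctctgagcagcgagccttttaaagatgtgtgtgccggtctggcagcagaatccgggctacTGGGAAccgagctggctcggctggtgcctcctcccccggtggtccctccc
Acta2, chr19:34255324-34255623, minus strand: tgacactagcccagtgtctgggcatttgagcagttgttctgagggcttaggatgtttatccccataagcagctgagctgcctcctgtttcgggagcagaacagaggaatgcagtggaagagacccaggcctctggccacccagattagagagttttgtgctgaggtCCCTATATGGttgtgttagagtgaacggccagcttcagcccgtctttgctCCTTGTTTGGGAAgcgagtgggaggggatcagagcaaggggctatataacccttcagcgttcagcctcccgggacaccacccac

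Positions count from 1 at the transcription start, both strands were searched, and these matches describe letters only. In Abcc9 the word TGGGAA stood at -221 to -216, and in Kcnj8 at 1 to 6. Acta2 held the near matches to the CArG box at -84 to -75 and at -34 to -25, the latter overlapping a TGGGAA at -27 to -22. TGGGAA is common, being present in 25.6% of the 32851 promoters of this length, and the CArG box with 1 other base allowed was present in 9.98%. The exact CArG box, present in 1.63% of all promoters, and the word TATAAA, present in 13.6%, were not in these windows of Abcc9, Kcnj8 or Acta2. GC content was 65.7% in the Abcc9 window, 53.3% in that of Kcnj8 and 54.7% in that of Acta2.

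Abcc9 was at 11.2, 10.5, 11.6, 13.8 and 12.1 CPM in young replicates 1 to 5 and at 14.9, 16.5, 15.7 and 15.7 CPM in old replicates 1, 3, 4 and 5. Every old mouse was above every young one, a pattern that 6.50% of all tested genes showed, and the young library nearest to the old was replicate 4. The group means were 11.8 ± 1.24 CPM (SD, n = 5) and 15.7 ± 0.665 CPM (SD, n = 4), a log2 fold change of 0.40 (SE 0.081, edgeR adjusted p = 0.00695). By p-value the gene ranked 569 among the 18492 tested. Leaving out each mouse in turn gave log2 fold changes of 0.36 to 0.47, with adjusted p between 0.00140 and 0.0217, and the highest fold change was that without young replicate 4. On log2(TPM + 1) the difference was 0.19 and did not pass limma's test (adjusted p = 0.588). On that scale the median of all genes was -0.14, and Abcc9 stood 0.34 above it. The change was also under the study's fold threshold for transcripts (absolute log2 fold change over 0.58), which 2.68% of genes passed together with the adjusted p. Exons of Abcc9 are overlapped by 5330439B14Rik on the opposite strand, and the methods, which count by strand where a library preserves it, do not say whether these libraries did.

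Kcnj8 was at 3.71, 3.54, 3.64, 3.43 and 3.71 CPM in the young and at 4.62, 5.78, 5.53 and 4.29 CPM in the old libraries, in the replicate order given for Abcc9. The young libraries lay close together, and all old libraries were above them. Kcnj8 rested on 53 to 101 counts per library. At such counts the sampling of reads alone is expected to spread values more widely than the young values were spread. The mean went from 3.61 ± 0.120 to 5.05 ± 0.715 CPM (SD, n = 5 and 4), a log2 fold change of 0.48 (SE 0.122, edgeR adjusted p = 0.0214). This call was lost without old replicate 3 (0.42, adjusted p = 0.0626) and without old replicate 4 (0.43, adjusted p = 0.0609), as well as on log2(TPM + 1) (0.25, limma adjusted p = 0.518). The ratio of the 2 subunits overlapped between the ages, with 2.97 to 4.03 times as many counts of Abcc9 as of Kcnj8 in young and 2.83 to 3.66 times in old mice. Within an age the 2 genes had an age-centred Pearson's r of 0.084 over 9 libraries, computed on log2 CPM after subtracting each age group's mean. With so few counts of Kcnj8, a low r does not tell whether the 2 genes vary together.

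**Figure D2:**
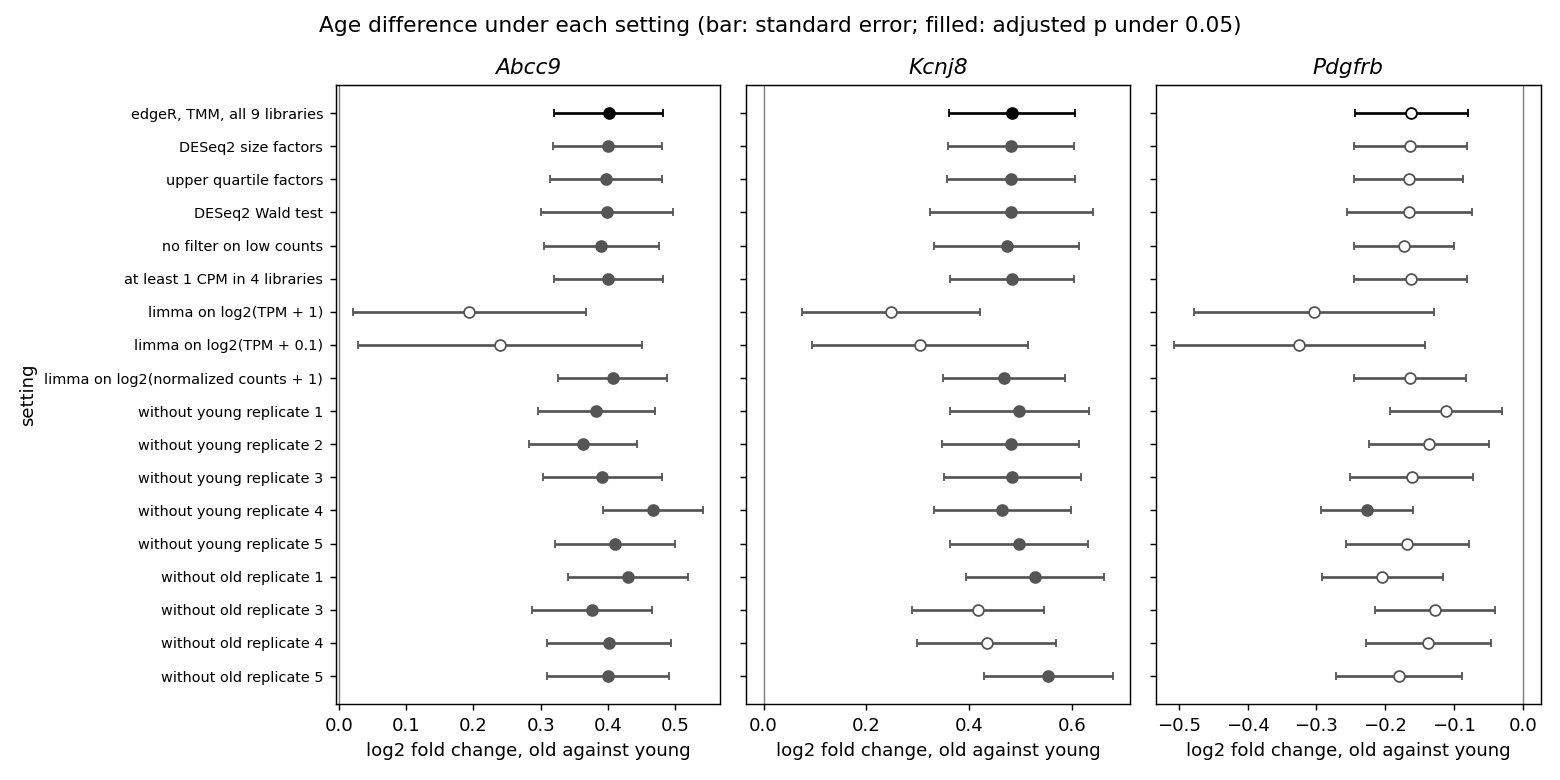
Log2 fold change of old against young mice for Abcc9, Kcnj8 and Pdgfrb (x axes, each with its own range) under the main setting and 17 alternatives (y axis). Points are estimates, bars are standard errors and filled points have an adjusted p under 0.05. Abcc9 is called in all settings shown but the 2 on TPM, Kcnj8 also fails without old replicate 3 or old replicate 4, and Pdgfrb is called only without young replicate 4.

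Pdgfrb (ENSMUSG00000024620) encodes the receptor PDGFR-beta, which pericytes need for their recruitment to vessels. It was at 32.1, 30.3, 28.9, 23.7 and 27.9 CPM in young replicates 1 to 5 and at 27.8, 23.4, 24.2 and 26.5 CPM in old replicates 1, 3, 4 and 5. Young replicate 4 lay among the old libraries, while the other 4 young libraries were above all old ones. With all mice the means were 28.6 ± 3.16 and 25.5 ± 2.01 CPM (SD, n = 5 and 4), and the log2 fold change of -0.16 did not pass the test (SE 0.082, 95% confidence interval -0.34 to 0.013, edgeR adjusted p = 0.231). Without young replicate 4 it was -0.23 and passed (adjusted p = 0.0463). It was the single call among 133 values obtained for the 7 genes other than Abcc9 over 19 alternatives.

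The counts of Abcc9 relative to those of Pdgfrb, a ratio chosen after the values were seen, were 0.348, 0.347, 0.401, 0.583 and 0.432 in the young and 0.535, 0.705, 0.646 and 0.592 in the old libraries, in the same order. Young replicate 4 again lay within the old range, and the other 4 young libraries lay under it. Within an age the 2 genes moved in opposite directions between mice, with an age-centred Pearson's r of -0.90 over 9 libraries (Spearman's rho -0.87) and of -0.74 over the 8 without young replicate 4. This pair had the lowest r of all pairs of the 8 mural genes. Abcc9 also had a negative r with Tagln (-0.78), Myh11 (-0.65) and Acta2 (-0.58). Without young replicate 4 these values were -0.34, 0.12 and 0.011. The points share libraries, and the correlations are a description of them. The ratio of Abcc9 to Vtn was 0.153 to 0.228 in young and 0.197 to 0.232 in old mice, and that of Abcc9 to Notch3 was 0.319 to 0.406 and 0.371 to 0.448, and in both the overlap came from young replicate 4. Without it the young ranges were 0.153 to 0.173 and 0.319 to 0.365, below the old ones as with Pdgfrb.

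Vtn (ENSMUSG00000017344) encodes vitronectin, an adhesive glycoprotein of plasma and matrix that brain pericytes make. It was the most abundant of the 8, at 64.7, 68.7, 68.6, 60.7 and 71.5 CPM in the young and 64.9, 71.2, 69.6 and 79.5 CPM in the old libraries. The groups overlapped except for old replicate 5, which was above all others, and the lowest library was young replicate 4. The log2 fold change was 0.094 (SE 0.060, 95% confidence interval -0.034 to 0.22, edgeR adjusted p = 0.353).

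Notch3 (ENSMUSG00000038146) encodes the Notch receptor of mural cells, which maintains arterial smooth muscle. Its levels were 33.4, 32.9, 35.9, 34.0 and 33.1 CPM in young mice and 34.7, 39.0, 34.9 and 42.3 CPM in old mice. Old replicates 3 and 5 were above all young libraries, while old replicates 1 and 4 lay within the young range. The log2 fold change of 0.15 (SE 0.061, 95% confidence interval 0.024 to 0.29) had an unadjusted p of 0.0234 and did not pass after adjustment (edgeR, 0.121). Its exons are overlapped by Gm17276 on the opposite strand.

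Higd1b (ENSMUSG00000020928), which belongs to the hypoxia-inducible domain family and marks brain pericytes, was the least abundant in CPM together with Tagln, at 29 to 47 counts per library. It was at 1.83 to 2.59 CPM in the young mice, with a median at replicate 1, and at 2.497, 3.24, 1.75 and 1.70 CPM in old replicates 1, 3, 4 and 5. The old mice spread on either side of the young ones. The log2 fold change was 0.021 (SE 0.203, 95% confidence interval -0.41 to 0.46, edgeR adjusted p = 0.964), an interval that leaves room for changes as large as that of Abcc9 in either direction.

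None of the 3 contractile genes was called, and in each the lowest library was that of 1 young mouse. Acta2 (ENSMUSG00000035783), smooth muscle alpha-actin, was at 13.3, 15.7, 13.5, 10.5 and 13.7 CPM in the young and 11.9, 14.5, 11.8 and 14.7 CPM in the old libraries. Myh11 (ENSMUSG00000018830), the smooth muscle myosin heavy chain, was at 14.7, 18.6, 17.9, 10.7 and 16.7 CPM in the young and 14.9, 17.5, 13.6 and 16.7 CPM in the old libraries. Tagln (ENSMUSG00000032085), the actin-binding protein transgelin, was at 3.55, 3.38, 2.06, 1.40 and 2.66 CPM in the young and 2.66, 3.10, 2.74 and 3.17 CPM in the old libraries. In each of the 3, young replicate 4 was the lowest of all 9 libraries, and the remaining young mice overlapped the old. The mean log2 CPM of the 3 genes was 2.48 in that library, 3.02 to 3.34 in the other young libraries and 2.95 to 3.23 in the old.

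The log2 fold changes were -0.014 for Acta2 (SE 0.110, 95% confidence interval -0.25 to 0.22, edgeR adjusted p = 0.954), 0.0022 for Myh11 (SE 0.135, -0.29 to 0.29, 0.994) and 0.16 for Tagln (SE 0.229, -0.34 to 0.65, 0.717). Without young replicate 4 they were -0.094 for Acta2, -0.12 for Myh11 and -0.018 for Tagln, none of which passed the test. Tagln rested on 29 to 68 counts per library, and its exons are overlapped by Pcsk7 and Gm48529 on the opposite strand.

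**Figure D3:**
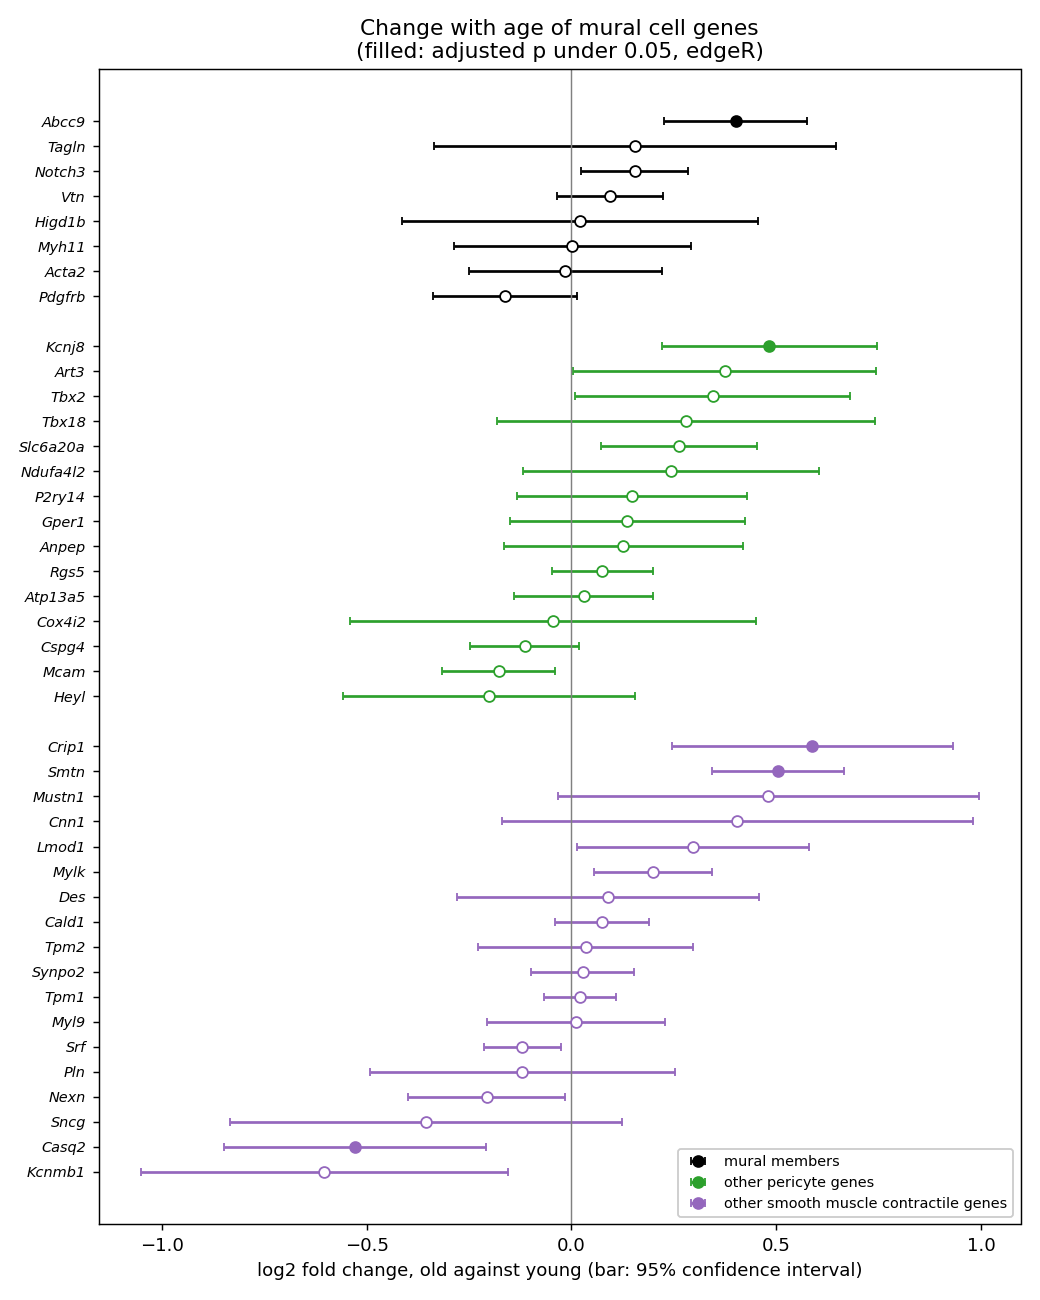
Log2 fold change of old against young mice (x axis) for the 8 mural genes (black) and 15 other pericyte genes (green). Purple marks 18 other genes listed for contractile smooth muscle, among them regulators such as Srf. Points are edgeR estimates, bars are 95% confidence intervals and filled points have an adjusted p under 0.05. The filled points are Abcc9, Kcnj8, Crip1, Smtn and, on the side of lower levels in old mice, Casq2.

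Levels between genes were compared per length, on the deposited TPM. In young mice the order from the highest was Vtn (86.5 ± 18.2 TPM), Acta2 (19.8 ± 4.94), Pdgfrb (13.8 ± 3.43), Notch3 (11.1 ± 2.46), Higd1b (6.98 ± 1.69), Myh11 (6.31 ± 2.08), Abcc9 (3.68 ± 0.618) and Tagln (3.46 ± 1.29; SD, n = 5). In old mice the order of the means was the same except that Notch3 stood above Pdgfrb, at 10.9 ± 1.38 and 10.8 ± 1.82 TPM (SD, n = 4). Vtn was above Acta2 in 9 of 9 libraries, by 3.84 to 5.19 times, Acta2 above Pdgfrb in 9 and Notch3 above Higd1b in 9. The other neighbours changed places between libraries, so their order is not larger than the spread. Abcc9 was above Tagln in 3 of the 5 young and in 4 of the 4 old libraries. The TPM scale is affected by 1 short noncoding gene, Gm23935, which took 8.69 to 39.5% of the TPM but 0.149 to 1.09% of the counts of a library. Ratios within a library are free of this share.

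Between libraries of the same age, Acta2 and Myh11 varied together, with an age-centred r of 0.91 over 9 libraries and of 0.83 without young replicate 4. Tagln went with Acta2 at 0.77 and with Myh11 at 0.66, values that fell to 0.48 and -0.049 without that library. Pairs outside these contractile genes were as high. Vtn went with Acta2 at 0.77 (0.65 without young replicate 4) and with Myh11 at 0.70 (0.54), and Pdgfrb went with Tagln at 0.74 (0.34). The 10 pairs among Pdgfrb, Vtn, Abcc9, Notch3 and Higd1b had a median r of -0.062, from -0.90 for Pdgfrb and Abcc9 to 0.61 for Vtn and Notch3. Without young replicate 4 their median was -0.069, and the same 2 pairs were at -0.74 and 0.75. Over all pairs the values thus ran from -0.90 to 0.91, and from -0.74 to 0.83 without that library.

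**Figure D4:**
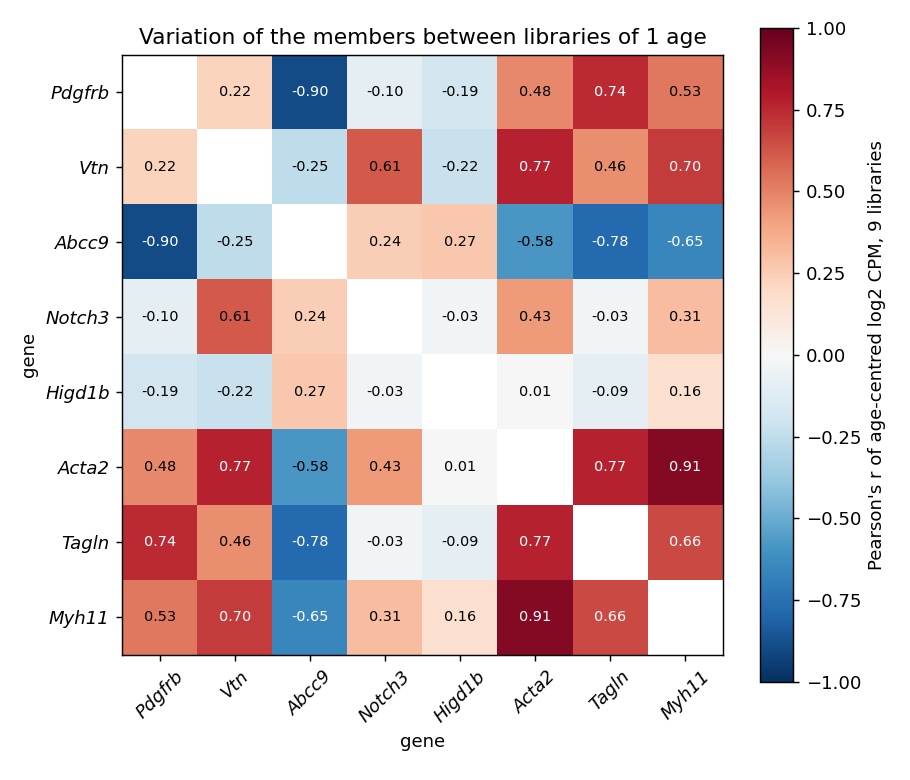
Pearson's r between the mural genes over 9 libraries (colour and number in each cell), computed on log2 CPM after subtracting the mean of each age group. Acta2, Tagln and Myh11 have r between 0.66 and 0.91 with one another. Vtn with Acta2 (0.77), Pdgfrb with Tagln (0.74) and Vtn with Myh11 (0.70) lie in the same range. Without young replicate 4 the r of Tagln with Myh11 is -0.049. The lowest value is -0.90 for Pdgfrb with Abcc9.

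The genes whose variation was most like that of the mean of Acta2, Tagln and Myh11, among 14495 genes ranked by age-centred r over the 9 libraries, were Cbx3 (0.98), Utp18 (0.97), Mid1 (0.96), Syde2 (0.94) and Mmp14 (0.94). Those most like the mean of the other 5 mural genes were Jrkl (0.98), Dnhd1 (0.97), Atxn7 (0.93), Gm39469 (0.93) and Gm13446 (0.93). The 5 mural genes behind this second mean had a median r of -0.062 with one another, so it stands for no shared variation. Choosing the highest of 14495 values over 9 libraries can also give a high r for genes with no link to mural cells. These are descriptions over libraries that include young replicate 4, and no test was made.

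Of 16 other pericyte genes, 15 were tested, 1 rose (Kcnj8) and 0 fell, where 6.20% and 4.83% of all genes did. Without old replicate 3 or 4 none was called, and without old replicate 1 there were 2. The median log2 fold change was 0.14, from 0.086 without young replicate 3 to 0.19 without young replicate 4, and -0.021 on log2(TPM + 1). Their summed level was 211 to 231 CPM in the young and 216 to 242 CPM in the old libraries, and Foxs1 did not pass the filter. Those with the next lowest p were the amino acid transporter Slc6a20a (0.26, edgeR adjusted p = 0.0734, and 0.0146 without old replicate 1), the adhesion molecule Mcam (-0.18, 0.0906) and the transcription factor Tbx2 (0.35, 0.179). Rgs5, a regulator of G protein signalling and a widely used pericyte marker, averaged 96.5 ± 4.50 CPM (SD, n = 5) in the young group and 102 ± 9.67 CPM (SD, n = 4) in the old (log2 fold change 0.075, adjusted p = 0.448). Cspg4, the proteoglycan NG2, which oligodendrocyte precursors also express, differed by -0.11 on the log2 scale (adjusted p = 0.270). Rgs5 and Cspg4 were named after their values were seen. On log2(TPM + 1), limma did not call 15 of the 24 called genes named in the text, a count that leaves out the endothelial gene Itm2a described below. They were Abcc9, Kcnj8 and, of those described next, Smtn, Crip1, Tgfbr2, S1pr1, Acvrl1, S1pr3, Pdgfb, Notch4, Itgav, Slc2a1, Pecam1, Abcb1a and Fmod.

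A further list held 20 genes of contractile smooth muscle, among them regulators such as Srf, which encodes serum response factor. Of these, 18 were tested, 2 rose and 1 fell, against the same backgrounds of 6.20% and 4.83%. The median log2 fold change was 0.031, 0.076 without old replicate 1, 0.061 without old replicate 3, and -0.12 on log2(TPM + 1). Smtn, smoothelin, a cytoskeletal protein of contractile smooth muscle, ranged from 10.2 to 12.3 CPM in young mice and from 14.8 to 17.1 CPM in old mice. The groups did not overlap, and the log2 fold change of 0.50 (SE 0.075, edgeR adjusted p = 0.00102) kept its call with each mouse left out. Crip1, a small LIM domain protein, rose by 0.59 (adjusted p = 0.0300), from 1.83 to 2.61 CPM in young to 2.75 to 3.93 CPM in old mice, and its call was lost without young replicate 2 or 5 or old replicate 1 or 5 (adjusted p = 0.0608 to 0.0958). Casq2, a calsequestrin that stores calcium in the sarcoplasmic reticulum, fell by 0.53 (adjusted p = 0.0354), with overlapping ranges of 5.20 to 8.32 CPM in young and 4.17 to 6.11 CPM in old mice. That call was lost in 7 of the 9 fits that left out 1 mouse, those without young replicate 1, 3, 4 or 5 or old replicate 3, 4 or 5 (adjusted p = 0.0591 to 0.103). Mylk, the myosin light chain kinase, differed by 0.20 (adjusted p = 0.0721, and 0.0319 without old replicate 4). The summed level of the list was 387 to 396 CPM in young and 385 to 408 CPM in old mice, and Actg2 and Myocd did not pass the filter. Casq2 and Crip1 are also expressed outside vessels, and Smtn has overlapping genes on the opposite strand (Gm11946 and Gm11947).

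Among 16 genes of the PDGF, TGF-beta, angiopoietin and sphingosine phosphate signals between endothelium and mural cells, 4 rose and 1 fell, beside 6.20% and 4.83% of all genes. Without young replicate 4 the number that rose was 7, and without old replicate 1 or 5 it was 3. The median log2 fold change was 0.18, and 0.13 to 0.20 with 1 mouse left out. On log2(TPM + 1) it was 0.0087, where that of all genes was -0.14, and 0 genes of the list were called. The receptors Tgfbr2 and Acvrl1 rose by 0.37 (edgeR adjusted p = 0.00328) and 0.50 (0.00546), from 21.9 ± 1.40 to 28.3 ± 2.25 CPM and from 15.8 ± 1.81 to 22.5 ± 3.10 CPM (SD, n = 5 and 4). Of the receptors for sphingosine phosphate, S1pr1, which endothelial cells and astrocytes express, fell by 0.22 (adjusted p = 0.00398), from 131 ± 5.91 to 113 ± 3.33 CPM, with every old library below every young one, as in 6.08% of all genes. S1pr3, which mural cells express, rose by 0.45 (adjusted p = 0.0182), a call lost without old replicate 4 (adjusted p = 0.0580). Pdgfb, the ligand of the receptor encoded by Pdgfrb, was named after its values were seen. It was at 22.5 to 25.1 CPM in young and 24.8 to 30.1 CPM in old mice and rose by 0.24 (SE 0.061, adjusted p = 0.0211), and the call was lost without old replicate 1 (0.0553) or old replicate 5 (0.0697). Ligand and receptor thus differed in their calls with all mice, and the difference between the 2 changes was not tested.

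In the Notch pathway 1 of 14 genes rose and 0 fell, a share near the 6.20% and 4.83% of all genes. Without old replicate 1 there were 2 that rose. The median log2 fold change was 0.069, 0.032 without old replicate 5, and -0.089 on log2(TPM + 1). The gene that rose was Notch4, the Notch receptor of endothelial cells, from 9.75 ± 1.08 to 14.3 ± 1.37 CPM (log2 fold change 0.55, SE 0.093, edgeR adjusted p = 0.00238), with no overlap between the ages. The targets Hey1 (-0.15, adjusted p = 0.105), Nrarp (-0.30, 0.168) and Hes1 (0.18, 0.191) did not pass.

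Of 7 binding partners of vitronectin, 1 rose and 0 fell, beside 6.20% and 4.83% of all genes, and without young replicate 4 the number that rose was 3. The median log2 fold change was 0.32, and 0.10 without old replicate 4. On log2(TPM + 1) it was 0.115, and 0 genes of the list were called. The gene that rose was Itgav, the integrin chain alpha-v of vitronectin receptors, by 0.32 (SE 0.044, edgeR adjusted p = 0.000553), from 92.7 ± 2.64 to 116 ± 7.61 CPM, with no overlap between the ages. Itgb5, the beta-5 chain, did not pass edgeR's test with all mice (0.27, adjusted p = 0.0664) and passed it without young replicate 4 (0.38, 0.000235). With all mice Itgb5 passed by DESeq2's Wald test (0.0365), by edgeR with no filter on low counts (0.0126) and by limma on the authors' normalized counts (0.0484). The plasminogen activator Plau did not pass with all mice (0.59, 0.145) and passed without young replicate 4 (0.88, 0.0129). Plaur, the receptor of that activator, did not pass (0.45, 0.313).

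Markers of the other cells that share or border the vessels moved as follows, and their part in the change of Abcc9 and Kcnj8 was not tested. Of 14 endothelial genes, 6 rose and 1 fell, beside 6.20% and 4.83% of all genes, with a median log2 fold change of 0.16. Without young replicate 1, old replicate 1 or old replicate 4 the number that rose was 4, and on log2(TPM + 1) it was 1, with a median of -0.0084. The number that fell was 0 without young replicate 1 or 5 and 2 without young replicate 4. Their summed level was 448 to 467 CPM in young and 527 to 643 CPM in old mice. The lowest p-values were those of Ly6c1 (0.94, edgeR adjusted p = 5.03e-05), the glucose transporter Slc2a1 (0.68, 0.000929), the adhesion molecule Pecam1 (0.38, 0.00106) and the efflux pump Abcb1a (0.23, 0.0188, and 0.055 without old replicate 1). These 4 rose, but of the 14 genes 9 had a positive and 5 a negative log2 fold change. The gene that fell was Itm2a (-0.43, edgeR adjusted p = 0.0232). Every old library was below every young one for Itm2a, as in 6.08% of all genes. All 5 red blood cell genes rose, with a median of 1.26. Without young replicate 1, old replicate 1 or old replicate 4, the number that rose was 4. The sums of the 5 were 86.1 to 116 CPM in young and 128 to 409 CPM in old mice. The highest was that of old replicate 4, without which the median was 0.82. Those with the lowest p were Hba-a1 (1.35, 0.00354), Hbb-bs (1.31, 0.00366), Alas2 (1.11, 0.0086) and Hba-a2 (1.23, 0.0142), and the globin genes have close copies that can share reads.

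Of 12 fibroblast and meningeal genes, 1 rose and 1 fell, beside 6.20% and 4.83% of all genes, with a median of 0.11. Without old replicate 1 the number that rose was 3 and the median 0.28, and without old replicate 4 the number that fell was 2 and the median 0.018. On log2(TPM + 1) the median was -0.087, with 0 genes called higher and 1 lower. Their sums were 215 to 253 CPM in young and 193 to 314 CPM in old mice. Col3a1 fell by 0.89 (edgeR adjusted p = 0.0156), and Fmod rose by 0.36 (0.0427), a call lost in 7 of the 9 fits that left out 1 mouse, those without young replicate 1, 2, 3 or 4 or old replicate 3, 4 or 5 (0.0546 to 0.118). Igf2 (0.16, 0.136) and Islr (0.39, 0.243) did not pass. Of 8 choroid plexus genes, 0 rose and 1 fell, Kcne2 (-0.74, 0.00734), with a median of -0.16 (-0.084 without young replicate 3, -0.023 without old replicate 5) and sums of 544 to 710 CPM in young and 450 to 757 CPM in old mice, while Aqp1 (0.49, 0.117), Kl (-0.19, 0.276) and Cldn2 (-0.27, 0.469) did not pass. Without old replicate 1 there was 1 choroid plexus gene that rose, Aqp1 (0.65, 0.0302). Of 6 skeletal muscle genes, 4 were tested, since Ckm and Tnnt3 did not pass the filter, and 1 rose, Myh4 (2.29, 0.0325), whose call was lost without old replicate 4 (1.24, 0.130) and without young replicate 2, 3 or 5 or old replicate 1 (0.0530 to 0.0747). Acta1 (0.55, 0.350), Myl1 (0.77, 0.253) and Mylpf (0.30, 0.646) did not pass, and the median of the 4 was 0.66, or 0.081 without old replicate 4. Their sums were 5.33 to 10.1 CPM in young and 4.58 to 31.7 CPM in old mice, the highest being old replicate 4. No marker list summed to 0 in any library.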

How the data were processed

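PolyA-selected RNA-seq libraries of whole brain from 5 young and 4 old mice, grouped by the sample labels, were analysed, 1 per mouse. Each deposited matrix held 1 further column of values, which matched no sample used here and entered no computation. Per the study's methods, reads were trimmed with Trimmomatic, aligned with STAR against GRCm38 from Ensembl and assigned to exons with featureCounts when they mapped uniquely. The resulting deposited counts per gene are unnormalized whole numbers. The authors' normalized table, a signal of counts divided by 1 size factor per library, covers 17994 genes. The authors also deposited TPM, for which the methods give no source of gene lengths. The submitters' processing notes name DESeq2.

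The filterByExpr function of edgeR (at least 10 counts in enough libraries, at least 15 in total) left 18492 genes, TMM factors scaled the libraries, and the quasi-likelihood test of edgeR compared the ages, with p-values adjusted over all these genes after Benjamini and Hochberg, a call being an adjusted p under 0.05. Log2 CPM used a prior count of 2. Symbols and positions came from GENCODE M21 for GRCm38, where 259 of 49315 identifiers had no symbol. Software was edgeR 4.0.16, DESeq2 1.42.0 and limma 3.58.1 in R 4.3.3. Counts per library were 14229259 to 21150439, the median standard error of a log2 fold change was 0.0838, and libraries of 1 age differed by more than sampling noise (lowest chi-square over its degrees of freedom, 4.04).

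The mural genes and the lists were chosen with earlier results of these data known. In 1 list, a gene is not reported here and was left out of the list's counts. Named genes are the 8 mural genes, up to 4 genes per list with the lowest p, and the 5 most alike in variation for each of 2 groups of mural genes. Pdgfb, Rgs5 and Cspg4 were added after their values were seen. Itm2a, the endothelial gene that fell, is mentioned in the text but is outside the counts of named genes. Same-numbered young and old libraries were not paired, as their deviations from the group means correlated at -0.12 to 0.17.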

Additional observations from a re-analysis of the deposited data

How the results depend on the processing

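Abcc9 kept its direction under all 19 alternatives and its call under 16 of them. The exceptions were limma on log2(TPM + 1) (0.19) and log2(TPM + 0.1) (0.24), and the fold threshold of 0.58, so that 0 mural genes were called higher under each of these 3. The same settings gave 307, 304 and 421 genes called higher and 287, 296 and 74 called lower among all genes, beside 1146 and 893. On TPM the median of all genes was -0.14 with a pseudocount of 1 and -0.16 with 0.1, and the cause of the lost calls was not tested.

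Signs turned for genes that were not called. With the 2 pseudocounts in turn, the log2 fold changes on TPM were -0.073 and -0.073 for Vtn, -0.13 and -0.15 for Myh11, -0.013 and -0.013 for Notch3, -0.15 and -0.17 for Higd1b, -0.0035 and -0.0033 for Igf2, -0.0016 and -0.061 for Mylpf, and -0.091 and -0.093 for Rgs5. Myh11 was at -0.00097 with upper quartile factors, -0.0018 with DESeq2's Wald test and -0.0076 with no filter, and Higd1b was at -0.012 on the authors' normalized counts, where Fmod (0.35, limma adjusted p = 0.05004) and Myh4 (1.54, 0.108) were not called. Other size factors, DESeq2's Wald test and no filter kept 24 of the 24 named calls.

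With the replicate number as a block, 995 genes were called higher and 692 lower. Abcc9 remained called (0.36, edgeR adjusted p = 0.0219), Kcnj8 (0.47, 0.0660) and Crip1 (0.52, 0.102) were not called, nor was Abcb1a (0.21, 0.0533), Mcam was called lower (-0.21, 0.0379) and Itgb5 higher (0.24, 0.0429), while Acta2 was at 0.050 and Higd1b at -0.068. It changed no other call of a named gene. The numbers do not pair the mice, and the correlations between same-numbered libraries did not all exceed 0.1.

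Leaving out each mouse in turn gave 852 to 1148 genes called higher and 585 to 794 called lower. Among the mural genes 1 to 1 was called higher and 0 to 1 lower, the 1 being Pdgfrb without young replicate 4. Ranges that crossed 0 were -0.094 to 0.056 for Acta2, -0.018 to 0.30 for Tagln, -0.12 to 0.078 for Myh11, -0.17 to 0.14 for Higd1b, -0.14 to 0.75 for Acta1 and -0.17 to 0.54 for Mylpf. Of 24 named genes that were called, 16 kept the call with every mouse left out and 8 lost it at least once. Of the mural genes, Tagln and Higd1b had the fewest counts, at 29 to 68 and 29 to 47 per library.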
